A study of Homo sapiens with 27 samples.

Results

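The regions described here are the poly(A)-site peaks that fall within the zinc-finger gene clusters near the end of the long arm of human chromosome 19. They were defined by position, with earlier results of these data known. Peaks that overlapped by at least 1 base on the same strand were merged over all 27 libraries, which gave 233020 merged peaks, of which 9456 lay on chromosome 19. Of these, 974 lay in the intervals chr19:52300000-54000000 (356 peaks) and chr19:56000000-59100000 (618 peaks), in hg19 coordinates, and the remaining 8482 chromosome 19 peaks served for comparison. No member crossed an interval edge, 562 lay on the plus strand and 412 on the minus strand.

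Distal 19q carries some of the largest tandem arrays of KRAB zinc-finger genes in the human genome. Their products bind DNA through arrays of C2H2 zinc fingers and recruit the corepressor TRIM28 through the KRAB domain, and many are known to silence transposable elements. Such genes are commonly transcribed at low levels, and their messages are commonly short-lived. The intervals also hold other genes near the chromosome end: in RefSeq's GRCh38.p14 gene order, 12 of the last 25 protein-coding genes of chromosome 19 carry a ZNF symbol, and TRIM28 itself is among the others. The deposited peaks carry no gene names and no hg19 annotation was used here, so every peak is named by its position and no peak is assigned to a gene.

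The study measured 3′ ends of poly(A)+ RNA by sequencing in 3 human lung cancer lines, 9 groups of 3 libraries each. H358, a lung adenocarcinoma line, was profiled as whole-cell RNA after cisplatin, oxaliplatin or the solvent DMSO. A549R cells, read from the design as the cisplatin-resistant counterpart of the adenocarcinoma line A549, were profiled as cytosolic RNA after cisplatin or DMSO, as were A549 cells. For A549, RNA from heavy polysomes, the fraction of messages loaded with many ribosomes, was also sequenced after cisplatin and after DMSO. Both platinum drugs were used at 100 µM, DMSO was given in parallel, all cells grew in RPMI medium, and the sources used here give neither the treatment time nor how A549R was derived. Nothing says that replicates were separate cultures, so the p-values below measure only the spread between these samples, which may be technical. In bulk RNA, fewer cells with a transcript and less of it per cell cannot be told apart. The identity of the lines was not checked by marker genes, since peaks carry no gene names.

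Libraries held 3024814 to 11997535 counts. Each library comes with its own list of peaks, and the lists are of 2 kinds: 16 long lists keep 73.1% to 79.4% of the peak numbers and 11 short lists keep 30.6% to 42.3%. Oxaliplatin-treated H358 (3 libraries), the cytosol of A549 (6 libraries) and replicate 3 of each A549 polysome group have short lists. List length therefore coincides with oxaliplatin in H358 and with line in the cytosol, and in those comparisons the 2 cannot be told apart. For fraction it coincides in 4 of 6 polysome libraries, while replicate 3 of each polysome group has a short list like the cytosol libraries. A peak missing from a list is not a count of 0, and the smallest listed count was 5. Each comparison below therefore uses only the peaks listed in all 6 of its libraries. A peak that fell below the listing threshold in 1 group is left out, so counts of measured members do not describe all 974.

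Of the 974 members, 218 were measured in at least 1 of the 10 comparisons and 756 in none. Just 1 library listed 276 of them, and the median member was listed in 4 libraries. A share of 45.9% of members appeared in at least 1 short list (447 peaks, median width 207 bases), against 41.4% of the other chromosome 19 peaks. The 527 members seen only in long lists had a median width of 72 bases. In H358, 7 members were listed in all cisplatin libraries and no DMSO library, and 21 the other way round. No share of all peaks is given beside these 2 counts. The DMSO lists were also longer, with 82015, 82786 and 55234 peaks, against 72547, 55486 and 47459 under cisplatin. Members called changed in at least 1 comparison numbered 76, and 4 were called in 4 or more. A call is an adjusted p under 0.05 in edgeR's quasi-likelihood test, with Benjamini-Hochberg adjustment over all measured peaks of the genome. Levels are CPM, that is counts scaled to a common library size, over the measured peaks of a comparison, so a peak's CPM can differ slightly between comparisons.

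Over the 37 members listed in all 27 libraries, reads were concentrated on a few sites. Mean CPM ran from 6.04 to 1754, with a median of 28.1, and the 5 highest members held 71.5% of the reads on all 37. These are counts at 3′ ends of sites of unequal width and are not divided by length. The highest was chr19:58905854-58906225 on the plus strand, with a mean of 1754 CPM and 41.6% of the members' reads. On polysomes alone it was not the highest: chr19:59061731-59062198 averaged 1544 CPM under cisplatin and 1325 CPM under DMSO there, where 58905854 averaged 1135 and 969 CPM. Over all libraries, next came chr19:59061731-59062198 (plus) at 623 CPM, chr19:59067070-59067598 (minus) at 242 CPM, a peak starting at 56206506 (plus) at 199.8 CPM and chr19:59062907-59063167 (minus) at 196 CPM. The 56206506 peak was called in none of the 10 comparisons.

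The fraction comparison asks how far each 3′ end was represented on heavy polysomes relative to the cytosol of the same cells. In A549 cells under DMSO, members were mostly less abundant on heavy polysomes than in the cytosol, whereas other chromosome 19 peaks were balanced. Of 67 measured members, 23 fell and 5 rose, where the background over all 20971 measured peaks was 17.4% lower and 16.9% higher. The median log2 difference of members, polysomes over cytosol, was -0.52, with quartiles of -1.15 and -0.03, against 0.01 for 1013 other chromosome 19 peaks, of which 199 fell and 200 rose. In each library, the median log2 CPM of members minus that of other chromosome 19 peaks was -1.49, -1.46 and -1.42 in polysomes, against -0.58, -0.57 and -0.85 in the cytosol. All 3 polysome libraries lay below all 3 cytosol libraries by this measure. Peak by peak, every polysome library was below every cytosol library in 28 members (41.8%, background 24.3%) and above in 8 (11.9%, background 23.6%). The 7 measured members of the first interval and the 60 of the second had similar medians, -0.55 and -0.52, and the other long-arm and short-arm peaks had -0.06 and 0.14. Leaving out polysome replicate 2 left 18 calls, the fewest, and using the polysome library with a short list as the single polysome sample left 11 calls, 7 of them lower, with a median difference between members and other peaks of -0.48. In that last fit the lone polysome sample is assumed to vary like the cytosol samples. Of the 28 calls made with all libraries, 18 held whichever library was left out.

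The member with the largest fall was chr19:57949477-57949830 on the plus strand. It had 2.08, 3.16 and 2.96 CPM on polysomes, against 13.9, 17.7 and 16.9 CPM in the cytosol, a log2 difference of -2.52 (SE 0.29, adjusted p = 0.000637). Every polysome library was far below every cytosol library. The most abundant member, 58905854, had 576, 628 and 1127 CPM on polysomes, against 1845, 1759 and 1890 CPM in the cytosol. Its log2 difference was -1.24 (SE 0.25, adjusted p = 0.00604), and the groups did not overlap, with polysome replicate 3, the library with the short list, nearest to the cytosol. A minus-strand peak at chr19:58337945-58338156 had 4.15, 7.02 and 5.65 CPM on polysomes, against 24.96, 19.9 and 21.8 CPM in the cytosol (log2 difference -1.95). Another minus-strand peak at chr19:59009694-59010059 had 18.7, 22.4 and 21.5 CPM on polysomes, against 62.7, 60.2 and 59.8 CPM in the cytosol, a log2 difference of -1.54. The replicates of that peak were tight in both fractions. Falls also came in runs of neighbouring sites: the plus-strand peaks starting at 59093190, 59093923 and 59095118, with gaps of 301 and 915 bases, had log2 differences of -1.82, -1.28 and -1.38. Likewise, the plus-strand peaks starting at 52824821 and 52828701, 3652 bases apart, had -1.65 and -1.92. Neighbouring sites on a strand can belong to 1 transcription unit and are not independent.

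Against this trend stood 5 members that were higher on polysomes, all on the plus strand. The member most abundant on polysomes, 59061731, had 1052, 1086 and 1046 CPM on polysomes, against 324, 388 and 389 CPM in the cytosol, a log2 difference of 1.53 (SE 0.15, adjusted p = 0.000465). The polysome values were close together and all above the cytosol values. A peak at chr19:59058742-59059085, a few kilobases upstream, had 70.3, 55.3 and 57.8 CPM on polysomes, against 14.3, 14.2 and 17.6 CPM in the cytosol (log2 difference 1.99). In the first interval, chr19:52729213-52729731 had 350, 348 and 284 CPM on polysomes, against 135, 138 and 124 CPM in the cytosol (log2 difference 1.31). At the near end of the second interval, chr19:56185299-56186091 had 267, 293 and 271 CPM on polysomes, against 142, 146 and 151 CPM in the cytosol, a log2 difference of 0.92. The remaining one, starting at 56165643, had a log2 difference of 0.87. Of these 5 peaks, 3 exceeded 100 CPM in every library of the comparison. None of the 18 measured minus-strand members rose and 7 fell, with a median of -0.68, against 5 rises and 16 falls among 49 plus-strand members, with a median of -0.52. The difference between strands was not tested, and no share of all peaks called by strand is given.

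**Figure D1:**
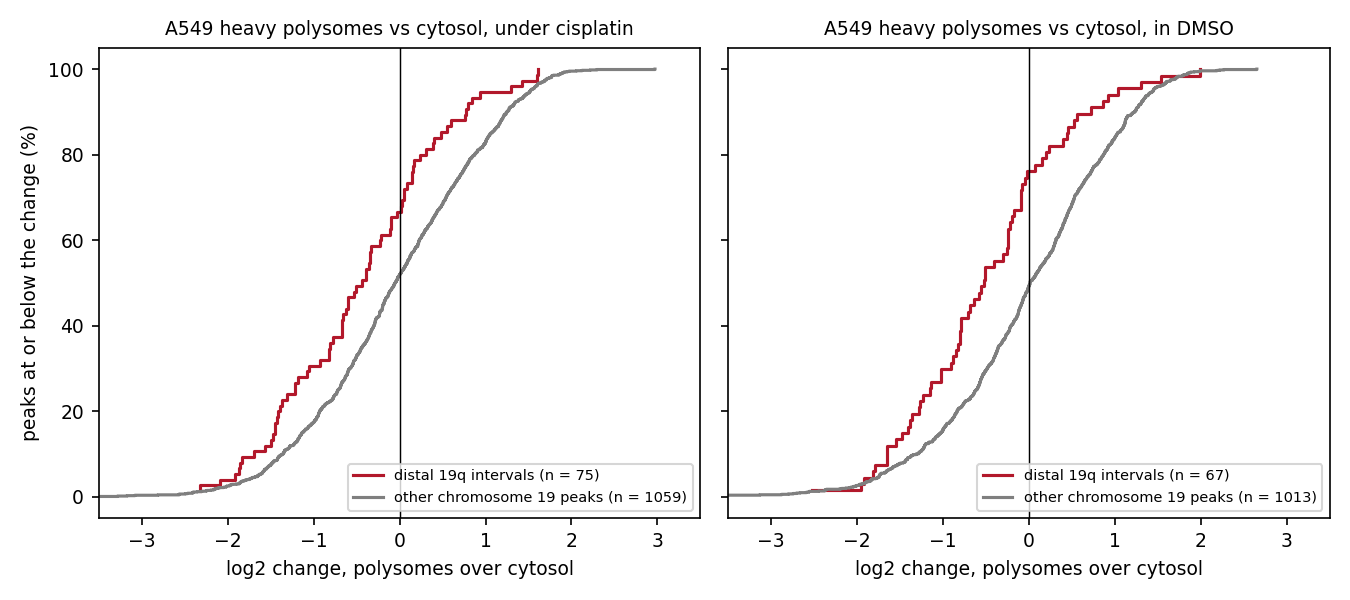
Cumulative share of peaks (vertical axis, %) by log2 difference of heavy polysomes over cytosol in A549 cells (horizontal axis), under cisplatin (left panel) and DMSO (right panel), for members of the distal 19q clusters and for the other chromosome 19 peaks. Member medians are -0.43 under cisplatin and -0.52 under DMSO, against -0.05 and 0.01 for the other peaks.

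Under cisplatin the same picture held in other libraries of the same cells. Of 75 measured members, 25 fell and 7 rose on polysomes, against a background of 18.6% lower and 18% higher over 20292 peaks. Every polysome library was below every cytosol library in 32 members (42.7%, background 25.3%) and above in 9 (12%, background 23.8%). The median log2 difference was -0.43 for members and -0.05 for 1059 other chromosome 19 peaks, of which 229 fell and 212 rose. Per library, the median of members minus that of other chromosome 19 peaks was -1.56, -1.69 and -0.80 on polysomes, against -1.05, -0.47 and -0.60 in the cytosol, so polysome replicate 3 (short list) lay among the cytosol libraries. With that library as the only polysome sample, 14 members were called, 8 higher and 6 lower, and the median difference between members and other peaks was -0.31. The surplus of falls over rises was thus not seen with this library alone. Leaving out replicate 2 of either fraction gave 21 calls, and 19 of the 32 calls made with all libraries held whichever library was left out.

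Of 60 members measured under both treatments, which share no library, 36 lay below 0 in both, 14 lay above 0 in both, 17 were called lower in both and 4 were called higher in both. Across these 60 members the log2 differences under cisplatin and DMSO had r = 0.94, and the same value was found over 923 other chromosome 19 peaks; members that share a transcript are not independent. The highest member, 58905854, had 784, 809 and 1180 CPM on polysomes, against 1937, 2132 and 2377 CPM in the cytosol under cisplatin, a log2 difference of -1.22. Again the groups did not overlap and replicate 3 was the highest of the polysome libraries. The 4 members higher under both treatments were 52729213, 56185299, 59058742 and 59061731, with log2 differences under cisplatin of 1.43, 0.94, 1.61 and 1.61. Falls called under cisplatin included chr19:59003742-59003970 (minus), with 1.504, 0.972 and 1.48 CPM on polysomes, against 4.72, 6.93 and 7.89 CPM in the cytosol. Its log2 difference was -2.32, every polysome library being lower. The polysome values rest on 5, 7 and 8 reads, at or near the smallest listed count of 5, so the size of this difference is uncertain.

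**Figure D2:**
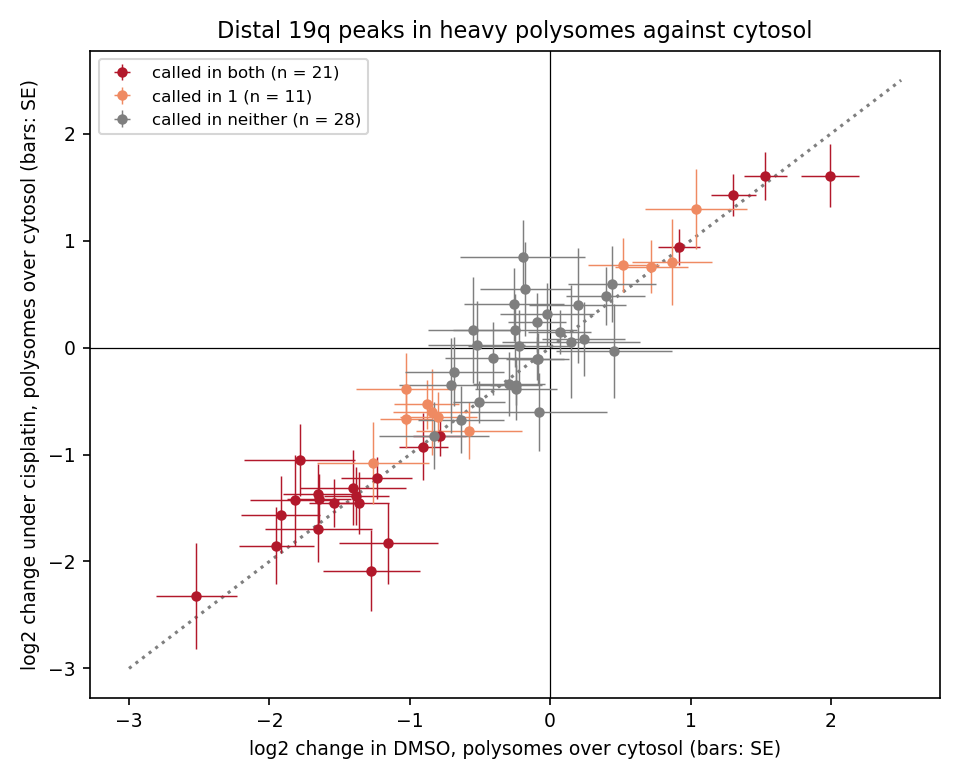
Log2 difference of heavy polysomes over cytosol under cisplatin (vertical axis) against that under DMSO (horizontal axis) for the 60 members measured under both, with 1 point per member and bars for the SE. Colour marks the 21 members called under both treatments, the 11 called under 1 and the 28 called under neither.

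Other zinc-finger zones of chromosome 19, fixed by position, gave a point of reference. Under DMSO the median polysome difference was -0.93 for 8 peaks at 9 to 10 Mb, -0.71 for 4 peaks at 20 to 24 Mb, -1.29 for 2 peaks at 37 to 38 Mb and 0.48 for 15 peaks at 44 to 45 Mb. Under cisplatin the same zones gave -1.06 for 8 peaks, -0.20 for 4, -1.05 for 3 and -0.06 for 22. The 44 to 45 Mb zone thus lay above the members under both treatments, and peaks between the 2 intervals had medians of -0.44 (55 peaks) under cisplatin and -0.12 (52 peaks) under DMSO. Under cisplatin the value between the intervals was close to that of the members, so a low polysome share was not limited to the intervals. These zones hold few peaks and were not tested against each other.

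The response to cisplatin was also followed on the polysomes themselves, where no member was called. Of 65 measured members, 10 had an unadjusted p under 0.05 with edgeR, a count given without the share of all peaks under that p. DESeq2 called 1, and the background of edgeR calls was 0.422% higher and 0.283% lower over 21585 peaks. The median log2 change was 0.28 for members and 0.03 for 1079 other chromosome 19 peaks, a difference of 0.25 that came to 0.11 without cisplatin replicate 3. In 11 members (16.9%, background 11.3%) every cisplatin library exceeded every DMSO library, against 2 (3.08%, background 11.8%) the other way. Per library, the median of members relative to other chromosome 19 peaks averaged -0.59 ± 0.27 under cisplatin and -1.09 ± 0.15 under DMSO (SD, n = 3 each). Same-numbered polysome libraries deviated together, and with the replicate number as a block 5 members rose, among them 52824821 (log2 change 1.03, adjusted p = 0.0295). The other 4 were the peaks starting at 58558208, 58929401 and 58984491 on the plus strand and 56088881 on the minus strand, with log2 changes of 1.42, 1.02, 0.94 and 0.85. The share of all peaks called with the block is not given, and the background above is that of the fit without it. In the cytosol and on polysomes, which share no library, 39 of 60 members had a log2 change above 0 in both and 11 below 0 in both (r = 0.71 across members). Without the block, the members with the lowest p on polysomes were 52824821 and 58558208, with log2 changes of 1.05 (adjusted p = 0.117) and 1.43 (adjusted p = 0.135).

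Whether cisplatin changed the polysome share itself was tested as an interaction over 12 libraries. None of 60 members and none of 17308 measured peaks passed, none of the members had an unadjusted p under 0.05 with edgeR (208 of all peaks did), and DESeq2 called none. The median interaction was 0.03 for members and -0.05 for other chromosome 19 peaks on the log2 scale. At this number of libraries a difference was not detectable, which does not show that the shares were equal.

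In whole H358 cells the drug comparisons ask which 3′ ends responded to platinum. Relative to the other chromosome 19 peaks, members were shifted upward under cisplatin. The median log2 change, cisplatin over DMSO, was 0.12 for 123 measured members (quartiles -0.53 and 0.73) and -0.19 for 1239 other chromosome 19 peaks. Per library, the median of members minus that of other chromosome 19 peaks was -0.78, -1.0 and -0.74 under cisplatin, against -1.54, -1.29 and -1.49 under DMSO, with no overlap. Other long-arm peaks had a median of -0.09 and short-arm peaks -0.28. Of the members, 15 rose (12.2%) and 18 fell (14.6%), against a background of 18.2% higher and 18.1% lower over 27634 peaks; among other chromosome 19 peaks, 205 rose and 314 fell. Both shares of members lay below the background. Of the 33 calls, 12 held whichever library was left out. In 28 members (22.8%) the cisplatin libraries all lay above the DMSO libraries and in 28 they all lay below, against a background of 24.5% above and 22.7% below.

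The split between rises and falls depended on scaling. Scaled on the peaks present in at least 1 short list alone, members shifted by a median of 0.49 on the log2 scale, and of 86 members 19 were called higher and 6 lower. A joint fit with the oxaliplatin libraries shifted members by 0.47 and called 17 higher and 7 lower of 82. The share of all peaks called under these settings is not given, so these counts have no background of their own. The short-list fit holds 3 of the 15 rises and 17 of the 18 falls, of which 3 and 6 kept their call. Both settings also change which peaks are fitted; RLE scaling over all 123 members gave 14 higher and 19 lower, with 14 of the rises and 18 of the falls kept. The rises called under both the full and the short-list scaling were 53961271 (plus), 53341780 (minus) and 58123868 (plus), and the falls were 59095118, 58774514, 56128275, 56114150 and 56671875 (plus) and 56102734 (minus). The difference between members and other chromosome 19 peaks kept its sign under every scaling tried. A scaling factor moves all peaks of a library alike, so a change of scaling alone could hardly have changed that sign.

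Rises and falls differed in level and listing. The 84 members under 10 CPM had a median of 0.38, with 13 rises and 4 falls, and other chromosome 19 peaks under that level had 0.12. The 39 members at 10 CPM or more had a median of -0.58, with 2 rises and 14 falls, and other peaks at that level had -0.41. By listing, the 37 members absent from every short list had a median of 0.71, with 12 rises and 1 fall, against 0.76 for 326 other such peaks. The 86 members present in a short list had -0.05, with 3 rises and 17 falls, against -0.47 for 913 other such peaks. Members thus stood above the other peaks among those of low level and among those in a short list, and below them at 10 CPM or more and among those absent from the short lists. The first interval had a median of 0.40 (40 members, 7 rises and 3 falls) and the second 0.03 (83 members, 8 rises and 15 falls). Medians of the other peaks split by level and by listing in the same direction as those of members. No share of all peaks called by level, listing or interval is given, so these counts have no background.

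The largest rise was that of chr19:58898326-58898474 on the minus strand, with 7.21, 9.77 and 14.6 CPM under cisplatin, against 1.12, 0.736 and 2.05 CPM under DMSO. The log2 change was 3.06 (SE 0.46, adjusted p = 5.46e-07), and every cisplatin library was well above every DMSO library. Its DMSO values near 1 CPM rest on few reads, so the size of this rise is uncertain. The next, chr19:53322128-53322160 on the plus strand, had 8.19, 6.51 and 11.7 CPM under cisplatin, against 2.48, 1.59 and 3.48 CPM under DMSO (log2 change 1.83). Further rises of the first interval were 53961271, 53341780 and 53529856, with log2 changes of 1.48, 1.42 and 1.36. The member 53529856 (plus) had 10.98, 19.3 and 25.1 CPM under cisplatin, against 4.59, 9.56 and 7.16 CPM under DMSO, again without overlap. The remaining 10 rises had log2 changes of 0.75 to 1.26, and the smallest of them, 57515678 (plus), was with 53529856 the only rise at 10 CPM or more.

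Falls were led by chr19:59095118-59095821 on the plus strand, with 9.34, 2.44 and 5.25 CPM under cisplatin, against 28.6, 25.9 and 17.2 CPM under DMSO. The log2 change was -2.02 (SE 0.38, adjusted p = 4.25e-05) and the groups were far apart. The peak at chr19:58774514-58775024 (plus) had 6.55, 2.98 and 3.21 CPM under cisplatin, against 16.0, 13.5 and 13.7 CPM under DMSO (log2 change -1.71). A group of falls lay within a short stretch at the start of the second interval: the peaks starting at 56128275 and 56114150 on the plus strand and at 56102734 and 56132091 on the minus strand had log2 changes of -1.64, -1.57, -1.49 and -1.31. The 56114150 peak had 8.19, 8.41 and 6.997 CPM under cisplatin, against 29.1, 19.98 and 21.1 CPM under DMSO. More abundant members also fell: 56598726 (minus) had 41.6, 37.4 and 28.3 CPM under cisplatin, against 81.5, 73.6 and 82.5 CPM under DMSO, a log2 change of -1.14. Under the short-list scaling the members in a short list, these falls among them, move upward by 0.43 to 0.54.

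**Figure D3:**
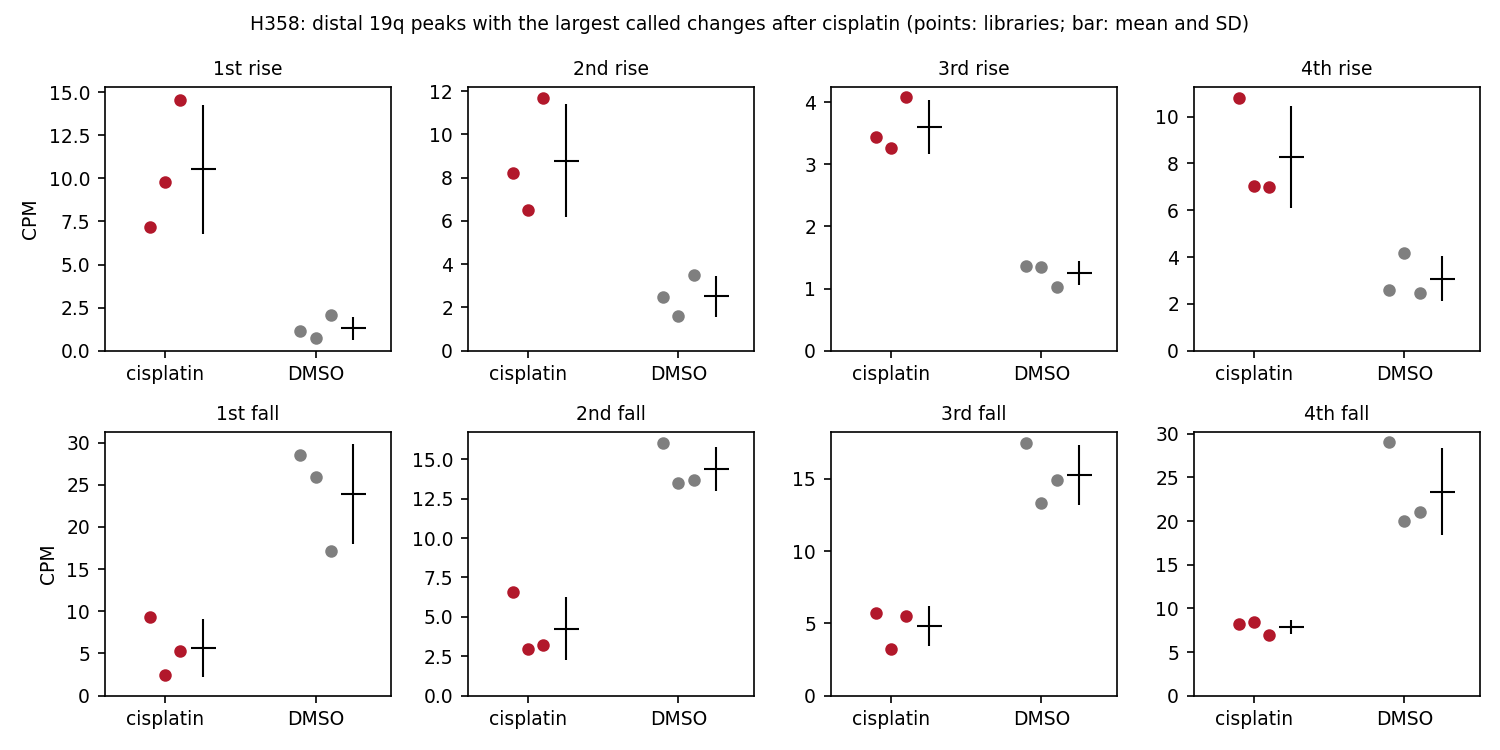
CPM (vertical axis, from 0) of each H358 library (points) under cisplatin (left) and DMSO (right), with bars for the mean and SD, for the 4 members with the largest rises (top row) and the 4 with the largest falls (bottom row). In each panel the cisplatin libraries do not overlap the DMSO libraries; the leading rise, 58898326, has 7.21 to 14.6 CPM under cisplatin and 0.736 to 2.05 CPM under DMSO.

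Other zones of chromosome 19 spread around these values. The median change under cisplatin was 0.22 for 23 peaks at 9 to 10 Mb, 0.47 for 24 peaks at 20 to 24 Mb, 0.65 for 15 peaks at 37 to 38 Mb and -0.32 for 16 peaks at 44 to 45 Mb. The 61 peaks between the 2 intervals had a median of -0.49, on the same scale on which members had 0.12.

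Oxaliplatin is a platinum drug that carries a diaminocyclohexane ligand and an oxalate in place of the ammines and chlorides of cisplatin. Of 122 measured members, none rose and 7 fell, against a background of 0.865% higher and 2.96% lower over 22659 peaks. With edgeR, 26 members had an unadjusted p under 0.05 in either direction, a count given without the share of all peaks under that p. The median log2 change was 0.16 for members and -0.12 for 1184 other chromosome 19 peaks, of which 9 rose and 41 fell, a difference of 0.28 that came to 0.12 without oxaliplatin replicate 2 and 0.17 without DMSO replicate 3. Every oxaliplatin library was above every DMSO library in 17 members (13.9%, background 10.3%) and below in 14 (11.5%, background 11.9%). The fall with the lowest p was chr19:56088881-56089263 on the minus strand, with 10.5, 4.36 and 10.0 CPM under oxaliplatin, against 29.9, 20.5 and 29.6 CPM under DMSO. Its log2 change was -1.67 (SE 0.34, adjusted p = 0.00581), without overlap, and it was the only member called whichever library was left out. The peak at 59032234 (plus) had a log2 change of -1.81, with 3.70, 2.62 and 3.10 CPM under oxaliplatin, against 16.9, 2.91 and 13.8 CPM under DMSO. Here the groups overlapped, since DMSO replicate 2 lay among the oxaliplatin libraries. The other 5 falls were 53560650, 59073269 and 59024883 (minus) and 59095118 and 56154248 (plus), with log2 changes of -1.65, -1.40, -1.07, -1.34 and -1.26. Calls numbered 1 without DMSO replicate 1, 2 without oxaliplatin replicate 3, and 4 without oxaliplatin replicate 2 or DMSO replicate 3. The first interval had a median of 0.41 (29 members) and the second 0.04 (93 members).

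Set directly against each other at the same dose, cisplatin gave higher counts than oxaliplatin in 17 members and lower in 2, of 88 measured. The background was 12.4% higher and 10.2% lower over 14860 peaks, and members had 19.3% higher and 2.27% lower. The medians were nonetheless close, 0.20 for members and 0.15 for 898 other chromosome 19 peaks, of which 128 were higher and 52 lower. All cisplatin libraries exceeded all oxaliplatin libraries in 30 members (34.1%, background 19.6%) and lay below them in 4 (4.55%, background 18.1%). The largest difference was at chr19:53560650-53561280 on the minus strand, with 12.9, 11.2 and 9.28 CPM under cisplatin, against 1.17, 1.21 and 1.52 CPM under oxaliplatin, a log2 difference of 3.08 (SE 0.37, adjusted p = 2.42e-06). At chr19:53317517-53317687 on the same strand, the values were 6.67, 6.61 and 6.96 CPM under cisplatin, against 1.004, 1.41 and 0.911 CPM under oxaliplatin (log2 difference 2.60). Both peaks separated the drugs completely, but the oxaliplatin values near 1 CPM rest on few reads, so the size of both differences is uncertain. The peak at 59032234 had 26.9, 5.08 and 38.5 CPM under cisplatin, against 3.35, 2.42 and 2.73 CPM under oxaliplatin (log2 difference 3.05), with cisplatin replicate 2 close to the oxaliplatin libraries. The abundant member 59061731 had 555, 633 and 448 CPM under cisplatin, against 293, 211 and 306 CPM under oxaliplatin (log2 difference 1.01). Lower under cisplatin were 56598726, with 60.5, 70.1 and 45.03 CPM under cisplatin, against 158, 124 and 153 CPM under oxaliplatin (log2 difference -1.31), and 58774514 (log2 difference -0.97). In members called in neither direction the difference is not shown to be absent. Calls fell to 10 without cisplatin replicate 3, 11 without cisplatin replicate 2 and 12 without oxaliplatin replicate 3. Of the 19 calls, 9 held whichever library was left out.

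**Figure D4:**
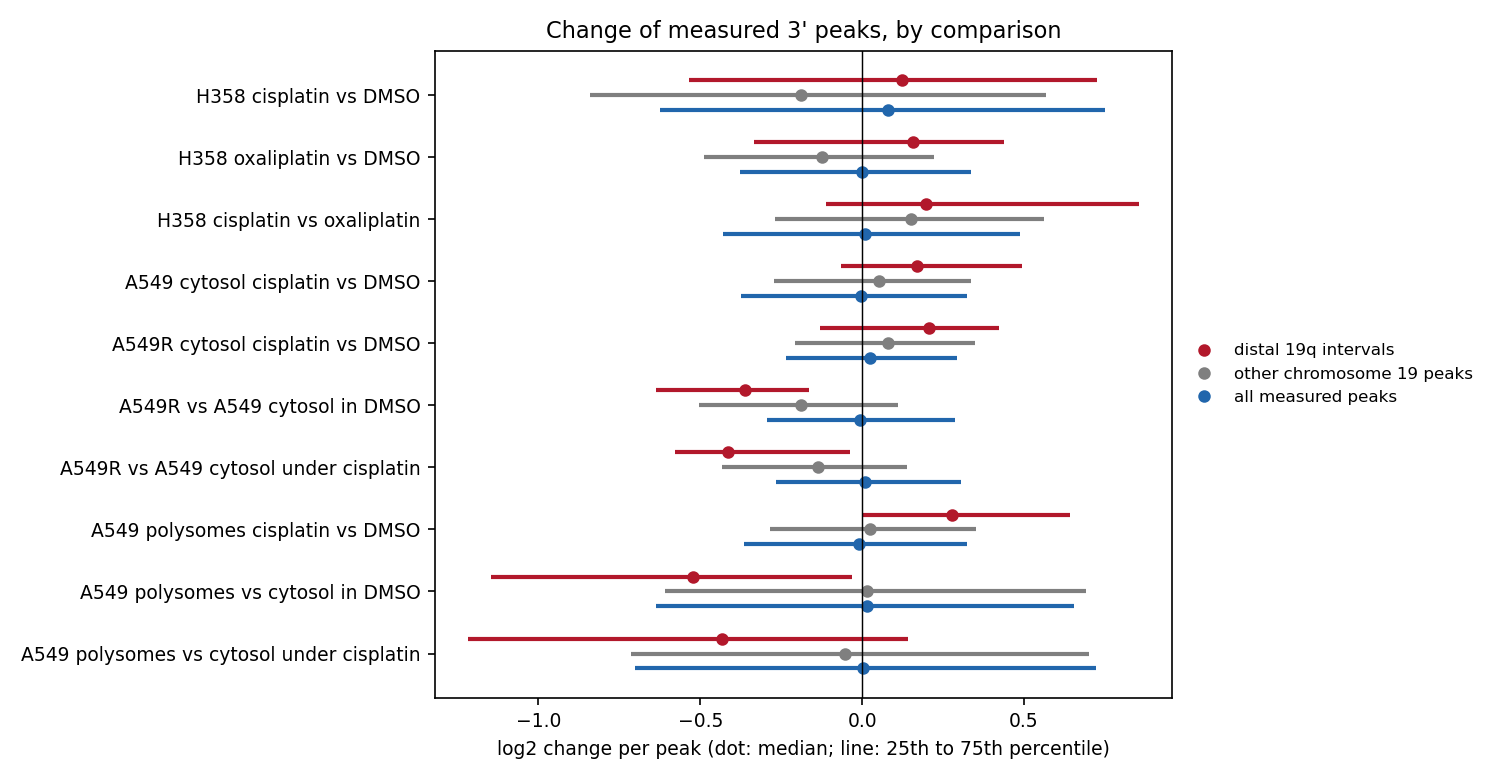
Median log2 difference of members and of the other chromosome 19 peaks in each of the 10 comparisons (dots, log2 units, horizontal axis), with lines for the 25th to 75th percentile. Members lie below the other peaks in the polysome against cytosol and A549R against A549 comparisons, and above them in the drug comparisons, most narrowly for cisplatin against oxaliplatin (0.20 and 0.15). Peaks of all levels are pooled. In H358 under cisplatin against DMSO, members at 10 CPM or more lay below other peaks of that level.

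In the cytosol of A549 and A549R cells, few members were called under cisplatin against DMSO in the fit without a replicate block. In members not called, a change is not shown to be absent. In A549, 1 of 86 members rose and 1 fell, against a background of 2.15% higher and 2.58% lower over 22161 peaks. Medians were 0.17 for members and 0.05 for 1091 other chromosome 19 peaks, a difference of 0.12 that came to 0.08 without cisplatin replicate 2 and 0.18 without cisplatin replicate 3. In 14 members (16.3%, background 13.3%) every cisplatin library lay above every DMSO library, and in 2 (2.33%, background 14.4%) every one lay below. The member that rose was chr19:52824821-52825048 on the plus strand, with 62.5, 75.2 and 85.0 CPM under cisplatin, against 42.1, 34.7 and 49.3 CPM under DMSO, a log2 change of 0.82 (SE 0.20, adjusted p = 0.0446). The one that fell was chr19:52954938-52955327 (plus), with 2.31, 1.72 and 2.39 CPM under cisplatin, against 4.79, 4.87 and 6.36 CPM under DMSO, a log2 change of -1.31 (SE 0.31, adjusted p = 0.0446). Neither peak's groups overlapped. The 2 calls were lost without DMSO replicate 1 or 2 or cisplatin replicate 2 or 3, 1 was left without DMSO replicate 3, and 5 members were called without cisplatin replicate 1. Same-numbered A549 cytosol libraries deviated together, and with the replicate number as a block 9 members were called, 8 higher and 1 lower. The 8 were 52824821, 53953428, 57876192, 57949477, 58825928 and 59093923 on the plus strand and 56088881 and 58858214 on the minus strand, with log2 changes of 0.83, 1.03, 1.25, 1.03, 0.63, 0.94, 0.77 and 0.71. The lower one was again 52954938. No share of all measured peaks called with the block is given, so these counts cannot be set against the background above.

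In A549R, 1 of 105 measured members rose and none fell, against a background of 0.528% higher and 0.39% lower over 43567 peaks. With edgeR, 13 members had an unadjusted p under 0.05, with no share of all peaks beside that count, and DESeq2 called 2. Again 52824821 was the member that rose, with 32.4, 28.7 and 25.7 CPM under cisplatin, against 10.8, 11.8 and 8.16 CPM under DMSO, a log2 change of 1.48 (SE 0.22, adjusted p = 0.016). All cisplatin libraries lay above all DMSO libraries in both lines. The call was lost without replicate 1 or 2 of either treatment, and 2 members were called without replicate 3 of either. The median was 0.21 for members and 0.08 for 1633 other chromosome 19 peaks, a difference of 0.13. It came to 0.01 without cisplatin replicate 2, 0.06 without cisplatin replicate 1 and 0.08 without DMSO replicate 3. Same-numbered A549R libraries correlated at 0.09 to 0.30 on these peaks and at 0.14 to 0.29 on the peaks listed in all 12 cytosol libraries. With the replicate number as a block, 8 members were called, 7 higher and 1 lower. The background above comes from the fit without a block and does not apply to that count. No overlap between treatments was found in 16 members with cisplatin higher (15.2%, background 9.3%) and in 3 with cisplatin lower (2.86%, background 8.05%). Of 53 members measured in both lines, 38 had a log2 change above 0 in both and 4 below 0 in both, with r = 0.45 across members. Over other chromosome 19 peaks r was 0.73.

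The difference in cisplatin response between A549R and A549 was tested as an interaction over 12 libraries, and none of 53 members and none of 16439 measured peaks passed. With edgeR 2 members had an unadjusted p under 0.05, as had 307 of all peaks, and DESeq2 called none. For 52824821 the interaction was 0.55 (SE 0.27, unadjusted p = 0.0575, adjusted p = 1).

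Between the lines, members were lower in A549R than in A549, along with the rest of the long arm. Under DMSO the median log2 difference, A549R over A549, was -0.36 for 55 members and -0.19 for 928 other chromosome 19 peaks. Other long-arm peaks, split from the short arm at 27 Mb, had a median of -0.38 (477 peaks) and short-arm peaks -0.04, so the members' median was close to that of their arm. Per library, the median of members relative to other chromosome 19 peaks was -0.77 ± 0.16 in A549R and -0.44 ± 0.08 in A549 (SD, n = 3 each), without overlap. The difference of -0.17 between the medians came to -0.11 without A549R replicate 3. In 22 of 55 members (40%) all A549R libraries were below all A549 libraries, against 11.3% of all 18571 measured peaks, and in 4 (7.27%, background 10.2%) they were above. By the test, 1 member was called lower and none higher (background 0.447% and 0.759%). With edgeR, 22 members had an unadjusted p under 0.05, with no share of all peaks beside that count, and DESeq2 called 2. The called member was 52824821, with 16.9, 18.7 and 16.4 CPM in A549R, against 46.2, 37.8 and 53.3 CPM in A549, a log2 difference of -1.39 (SE 0.21, adjusted p = 0.0137). This call was lost without A549R replicate 1 or 2 or A549 replicate 1, and 3 members were called without replicate 3 of either line.

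Under cisplatin the median was -0.42 for 84 members and -0.14 for 1083 other chromosome 19 peaks, with -0.33 over the other long-arm peaks and -0.03 over the short arm. The difference of -0.28 came to -0.16 without A549R replicate 3 and -0.17 without A549 replicate 2. All A549R libraries were below all A549 libraries in 23 members (27.4%, background 8.58%), and above them in none (background 9.05%). Unadjusted p was under 0.05 with edgeR in 22 members, with no share of all peaks beside that count, and DESeq2 called 3. After adjustment a single member was called lower and none higher (background 0.392% and 0.783% over 21452 peaks). It was chr19:59062907-59063167 on the minus strand, with 142, 151 and 134 CPM in A549R, against 257, 260 and 219 CPM in A549 (log2 difference -0.79, adjusted p = 0.0412), and the call held only when A549 replicate 3 was the library left out. Under cisplatin the median of members relative to other chromosome 19 peaks overlapped between the libraries of the lines, at -0.88 ± 0.38 in A549R and -0.92 ± 0.27 in A549 (SD, n = 3 each). By interval, the medians were -0.07 (17 members) and -0.42 (67 members) under cisplatin and -0.04 (10 members) and -0.48 (45 members) under DMSO, lower in the second interval. The A549 lists are short and the A549R lists long, and line and list cannot be told apart.

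One member moved in more comparisons than any other. The plus-strand peak chr19:52824821-52825048 was called in 5: higher under cisplatin in the cytosol of A549 and of A549R, lower in A549R than in A549 under DMSO, and lower on polysomes than in the cytosol under cisplatin and under DMSO. These are not independent: 3 of the 5 share the A549 cytosol DMSO libraries, and further pairs share other libraries. On polysomes it had 30.7, 24.4 and 36.6 CPM, against 67.8, 82.8 and 93.4 CPM in the cytosol under cisplatin (log2 difference -1.41, adjusted p = 0.00179). Under DMSO it had 16.6, 15.1 and 11.8 CPM on polysomes, against 45.8, 37.6 and 53.5 CPM in the cytosol (log2 difference -1.65, adjusted p = 0.0011). On polysomes it also had 31.8, 25.3 and 39.0 CPM under cisplatin, against 17.6, 16.1 and 12.6 CPM under DMSO, without overlap but with an adjusted p of 0.117. In H358 it had log2 changes of 0.10 under cisplatin (SE 0.40) and 0.21 under oxaliplatin (SE 0.37), neither called.

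**Figure D5:**
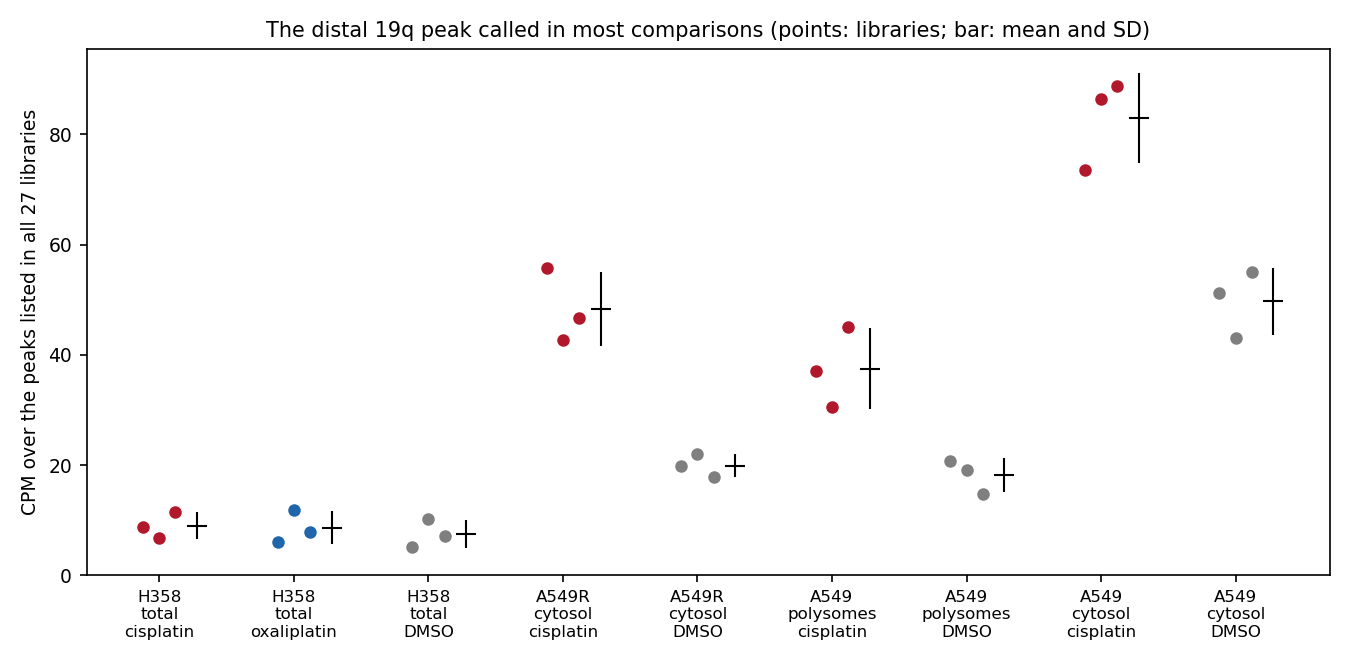
CPM of the member 52824821 (plus strand) in each of the 27 libraries (points) by group, with bars for the mean and SD, scaled over the peaks listed in all libraries. The A549 cytosol libraries under cisplatin are the highest and the H358 libraries the lowest, with A549R under cisplatin above A549R under DMSO.

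Among the other members called in 4 or more comparisons, 59095118 and 58774514 were each lower on polysomes than in the cytosol under both treatments and lower under cisplatin than under DMSO in H358. The first of these had log2 differences of -1.39 (cisplatin) and -1.38 (DMSO) on polysomes and was also lower under oxaliplatin (-1.34). The other had -1.31 and -1.41 and was lower under cisplatin than under oxaliplatin (-0.97). The member 56154248 (plus) fell under oxaliplatin against DMSO (-1.26), was higher under cisplatin than under oxaliplatin (1.21), and was lower on polysomes under cisplatin (-0.93) and under DMSO (-0.90). It had 22.01, 13.5 and 18.5 CPM under oxaliplatin, against 50.3, 35.3 and 43.7 CPM under DMSO, without overlap. The comparisons of cisplatin with oxaliplatin and of oxaliplatin with DMSO share the oxaliplatin libraries, so its 2 H358 values are not independent, and the same holds for the H358 values of 59095118 and 58774514, which share DMSO or cisplatin libraries.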

How the data were processed

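The deposited files give, for each of 27 libraries, peaks with a read count per peak; the authors deposited these counts without normalization. Per the submitters' processing notes, Bowtie2 2.2.5, SAMtools 1.1 and bedtools 2.17.0 were used. The notes name the build mm9, whereas the positions fit the human build hg19, which is used here. The peak filter is not given in the sources used here.

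Peaks overlapping by 1 base on a strand were merged and their counts summed. Peaks listed in all 6 libraries of a comparison were tested with edgeR 4.0.16 (R 4.3.3; TMM, quasi-likelihood), and interactions over 12 libraries. Adjustment (Benjamini-Hochberg) ran over all measured peaks. An SE is the log2 change divided by the square root of F. The fit was tested on simulated data. DESeq2 1.42.0, other scalings, filters of a mean count of 10 or 20, merging across gaps of 100 bases, joint fits, replicate blocks and leaving out each library were alternatives.

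Members, lists and tests were chosen with earlier results of these data known. Named peaks are called members, up to 10 per direction (H358 drugs against DMSO, A549 cisplatin, A549R against A549 under DMSO) or 5 (elsewhere), the 2 lowest p where none was called, the 5 highest by CPM, and those called in 4 or more comparisons. The peaks flagged or called under a block are named as well, chosen after their values were seen. Replicate numbers come from the labels. Same-numbered libraries correlated above 0.1 in every pair for A549 cisplatin against DMSO in cytosol and in polysomes, for both polysome against cytosol comparisons and for A549R against A549 under DMSO, and not for the other 5 comparisons, of which A549R cisplatin against DMSO did so on the peaks of the 12-library fit. Counting error limits low peaks: CPM of about 1 rest on few reads, and reads without molecular identifiers are not independent molecules.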

Additional observations from a re-analysis of the deposited data

Results flagged for a closer look

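Several members moved one way in every library under cisplatin in H358 whole cells and the opposite way in every library under cisplatin in the cytosol of A549 or A549R. These differences between lines were not tested, and the lines also differ in fraction. Against A549, 57876192 (plus) had log2 changes of -0.74 in H358 and 1.28 in A549, 56088881 (minus) -0.73 and 0.77, and 56132091 (minus) -1.31 and 0.38. Against A549R, 56114150 (plus) had -1.57 in H358 and 0.76 in A549R, 56671875 (plus) -1.23 and 0.35, 56088881 -0.73 and 0.98, 56102734 (minus) -1.49 and 0.54, and 56132091 -1.31 and 0.72. Such opposite patterns were seen in 3 of 54 members (5.56%) against A549, where 488 of 12260 peaks (3.98%) showed them, and in 5 of 70 members (7.14%) against A549R, where 1075 of 23282 peaks (4.62%) did. With H358 scaled on the peaks of the short lists alone, the H358 values of 57876192 and 56088881 become -0.22 and -0.25, and those of 56132091, 56114150, 56671875 and 56102734 become -0.83, -1.06, -0.74 and -1.03.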

How the results depend on the processing

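The difference between the median of members and that of other chromosome 19 peaks kept its sign in every alternative for every comparison with DMSO, with cytosol or with A549, and in 12 of 14 for cisplatin against oxaliplatin (-0.01 to 0.17). For the interactions it kept its sign in 11 of 19 (A549R and A549) and 18 of 19 (polysomes and cytosol) settings. These differences were set against the SD between replicate libraries of the median log2 CPM of members minus that of other chromosome 19 peaks. That measure is related to the difference of median log2 changes but is not the same. By it, 1 of these differences moved by more than the SD, to 0.17 with a mean count of at least 20 in H358 under cisplatin (otherwise 0.31). Leaving out 1 library still took the difference to 0.12 for oxaliplatin (otherwise 0.28), 0.01 for A549R cisplatin (0.13), 0.11 for polysomes under cisplatin against DMSO (0.25) and -0.16 for the lines under cisplatin (-0.28). Of 180 alternative counts of called members, 130 stayed within 1.5 times the reported count. All such counts are of members alone, with no share of all peaks called in the same setting beside them. Other counts were, for H358 oxaliplatin, 20 with the replicate block; for cisplatin against oxaliplatin, 11 with DESeq2, 11 with a mean count of 20 and 12 in the joint fit; for A549 cisplatin, 1 with a mean count of 20 and 9 with the block; for A549R cisplatin, 2 with DESeq2, 8 with the block and 2 in the joint fit; for A549R against A549, 2 with DESeq2 and 2 with merging across 100 bases under DMSO, 3 with DESeq2 and 2 in the joint fit under cisplatin; for polysomes under cisplatin against DMSO, 1 with DESeq2, 5 with the block and 4 in the joint fit; and with the short-list polysome library alone, an alternative chosen after seeing the data, 14 under cisplatin and 11 under DMSO. Leaving out 1 library at a time gave 23 to 36 called members for H358 cisplatin, 1 to 8 for oxaliplatin, 10 to 17 for cisplatin against oxaliplatin, 0 to 5 for A549 and 0 to 2 for A549R under cisplatin, 0 to 1 under cisplatin and 0 to 3 under DMSO for A549R against A549, 0 for polysomes under cisplatin against DMSO, and 21 to 31 under cisplatin and 18 to 31 under DMSO for polysomes against cytosol. Blocking by replicate number gave 37 calls for H358 cisplatin, 23 for cisplatin against oxaliplatin, 1 and 1 for the lines, and 39 (cisplatin) and 33 (DMSO) for polysomes against cytosol. In the H358 and cisplatin line comparisons same-numbered samples did not all reach a correlation of 0.1. For H358 oxaliplatin against DMSO they correlated at 0.09 to 0.45, the lowest just under that rule. A549R cisplatin meets the 0.1 rule on the peaks of 12 libraries and not on its own. Whether those block values bear on the effects was not tested. No called member changed sign in any alternative, although many calls were lost when 1 library was left out. The alternatives reuse the same libraries, so a member chosen by its call could hardly have changed sign. Members near 1 CPM rest on few reads, and at that depth small changes were not detectable.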
